A study of Mus musculus with 17 samples.

Results

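The renin-angiotensin system genes were taken as the 9 rows of the deposited kidney table whose symbols were Ren1, Agt, Ace, Agtr1a, Agtr1b, Mme, Enpep, Atp6ap2 and Mas1, out of 22558 genes used. The rule used symbols and no value of the table, though the members were chosen with earlier results of these data known. The study sequenced whole-kidney RNA of male mice to ask how the diabetic kidney differs from the healthy one and how dapagliflozin, which blocks glucose uptake by SGLT2 in the proximal tubule, alters it. The Ctrl group held 5 C57BL/6 mice given saline. The Case group held 6 db/db mice (BKS.Cg-Dock7m +/+ Leprdb/J, which lack a working leptin receptor and become obese and diabetic) given saline. The Dapa group held 6 db/db mice of that strain given dapagliflozin at 1.0 mg/kg per day. Mice entered at 8 weeks of age and were treated for 6 weeks. Because Ctrl and db/db mice came from different strains, the leptin receptor mutation and the strain background cannot be told apart in either comparison with Ctrl.

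The renin-angiotensin system makes small peptide hormones that set blood pressure and salt balance. Renin, released by juxtaglomerular cells of the renal arterioles, cuts angiotensinogen to angiotensin I, and angiotensin-converting enzyme turns this into angiotensin II, which acts on type 1 receptors of vessels and tubules. Other peptidases divert or degrade these peptides: neprilysin leads to angiotensin 1-7, the ligand of the Mas receptor, and aminopeptidase A shortens angiotensin II. The kidney holds its own copy of this system, with converting enzyme, neprilysin and aminopeptidase A on the brush border of the proximal tubule, and diabetic kidney disease is treated by blocking it.

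Ace was lower in both db/db groups than in Ctrl, with a mean of 17.1 ± 3.97 FPKM (SD, n = 5) in Ctrl, 3.65 ± 0.839 (n = 6) in Case and 4.77 ± 2.57 (n = 6) in Dapa. FPKM is the number of fragments per kilobase of transcript, scaled to a library of fixed size. Among the 8 members tested in Case against Ctrl, Ace and Mme were lower (6.91% of all genes tested were) and none was higher (6.09%). Among the 7 tested in Dapa against Ctrl, Ace, Agtr1a and Enpep were lower (14.9% of all genes) and none was higher (14.2%). Ren1 and Agt, which encode the first enzyme and the substrate of the cascade, passed in no comparison. No member passed in Dapa against Case, where 0.0% of all genes did.

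The windows upstream of the annotated starts of Agt, the substrate, and of Ace, the member with the largest fold change, are printed here as the annotated starts of the cascade's substrate and of that member. Counts per gene do not show from which start a transcript began. Sequences are from RefSeq on build GRCm38.p6 and run 5′ to 3′ on the strand of the gene. Capitals mark 3 motifs searched on both strands, the TATA box (TATAAA), the GC box (GGGCGG) and the CCAAT box (spelled as its name), and a motif on the opposite strand appears as its reverse complement. The Agt window covers chr8:124569707-124569956 on the minus strand, the window of the first Ace start covers chr11:105967698-105967944 on the plus strand, and the window of the second Ace start covers chr11:105974939-105975188 within the gene. The windows hold the 250 bases before the RefSeq start, but the last 3 bases of the first Ace window are left out, because GENCODE M21 begins the gene 3 bases before RefSeq does.
Agt: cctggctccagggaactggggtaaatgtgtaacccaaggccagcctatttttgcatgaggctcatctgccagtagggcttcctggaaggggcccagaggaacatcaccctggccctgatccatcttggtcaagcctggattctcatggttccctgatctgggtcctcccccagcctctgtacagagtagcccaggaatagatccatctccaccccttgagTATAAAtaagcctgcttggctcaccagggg
Ace, first start: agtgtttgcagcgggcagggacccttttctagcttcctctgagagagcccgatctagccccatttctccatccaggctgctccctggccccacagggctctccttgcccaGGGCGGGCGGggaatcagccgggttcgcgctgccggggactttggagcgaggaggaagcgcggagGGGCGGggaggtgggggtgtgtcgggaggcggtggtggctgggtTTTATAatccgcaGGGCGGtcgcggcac
Ace, second start: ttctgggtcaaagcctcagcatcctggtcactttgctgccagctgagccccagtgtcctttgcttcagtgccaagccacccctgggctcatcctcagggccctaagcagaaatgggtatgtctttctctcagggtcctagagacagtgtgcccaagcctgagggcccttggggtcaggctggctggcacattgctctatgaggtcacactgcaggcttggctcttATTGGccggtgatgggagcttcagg
In the Agt window the TATA box lay 30 to 25 bases before the RefSeq start. In the window of the first Ace start it lay on the opposite strand, 31 to 26 bases before the RefSeq start, beside 4 copies of the GC box, of which the first 2 overlap. The window of the second Ace start, used in testis for a shorter enzyme, lay between annotated exons of the longer form and held neither of these motifs, but a CCAAT box on the opposite strand. Ren1 also had a TATA box, 29 to 24 bases before its RefSeq start, at a place that GENCODE M21 counts as its first exon. Of 32851 RefSeq windows of 250 bases, 12.4% held the TATA box, 32.7% the GC box and 33.8% the CCAAT box. A match of letters is a description and not a bound site.

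Coordinates of all 9 members in the deposited table (mm10, the same build) were identical to those of GENCODE M21. Ren1 lies on chr1:133350510-133360325, Agt on chr8:124556534-124569706 and Ace on chr11:105967945-105989964. Mme lies on chr3:63241537-63386030, Enpep on chr3:129269175-129332720 and Atp6ap2 on chrX:12587801-12617049. The receptor genes Agtr1a, Agtr1b and Mas1 lie on chr13:30336441-30382867, chr3:20314473-20367177 and chr17:12841079-12868143. Values were summed over the exons of each gene, so the forms of Ace that begin at its first and second start were not separated. An antisense gene, Gm11651, covers an exon of Ace, and Airn covers one of Mas1. The libraries were strand-specific, but whether strand was used in counting was not given in the sources used here. Stretches of 50 bases found again in a transcript of another gene made up 1.23% of Agtr1a, 1.54% of Agtr1b, 0.402% of Mme and 2.53% of Atp6ap2, and none of the other members. Some mouse strains carry a second renin gene, Ren2, which GENCODE M21 does not list, and whether reads of it were counted as Ren1 was not tested.

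The libraries held 13039535 to 17779635 counts each. Mitochondrial genes took 17.9% to 20.4% of them in Ctrl, 19.8% to 27.3% in Case and 19.7% to 27.6% in Dapa, so that this share moved with the groups, and its part in the comparisons with Ctrl was not tested. The kidney markers Slc34a1, Lrp2 and Nphs1 were detected in every mouse. With edgeR's quasi-likelihood test and a Benjamini-Hochberg adjusted p (q) under 0.05, 13.0% of 14582 genes passed in Case against Ctrl and 29.1% of 14647 in Dapa against Ctrl. None of 14573 genes (0.0%) passed between the db/db groups. The calls split into 888 higher and 1007 lower in Case against Ctrl, and into 1106 and 728 with limma on log2(FPKM + 0.1). In Dapa against Ctrl the split was 2073 and 2187, and 2961 and 1473 with limma. A term for 8 libraries (4 Ctrl, 1 Case and 3 Dapa), in which 3 entries of the table were scaled differently from their counts, left 751 calls in Case against Ctrl. Case replicate 3 stood apart for macrophage markers (summed FPKM 188 against 25.9 to 53.4 in the other Case mice) and Ctrl replicate 3 for adipocyte markers (91.4 against 6.20 to 12.4 in the other Ctrl mice). In bulk tissue, fewer cells of a type and less RNA per cell cannot be told apart.

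**Figure D1:**
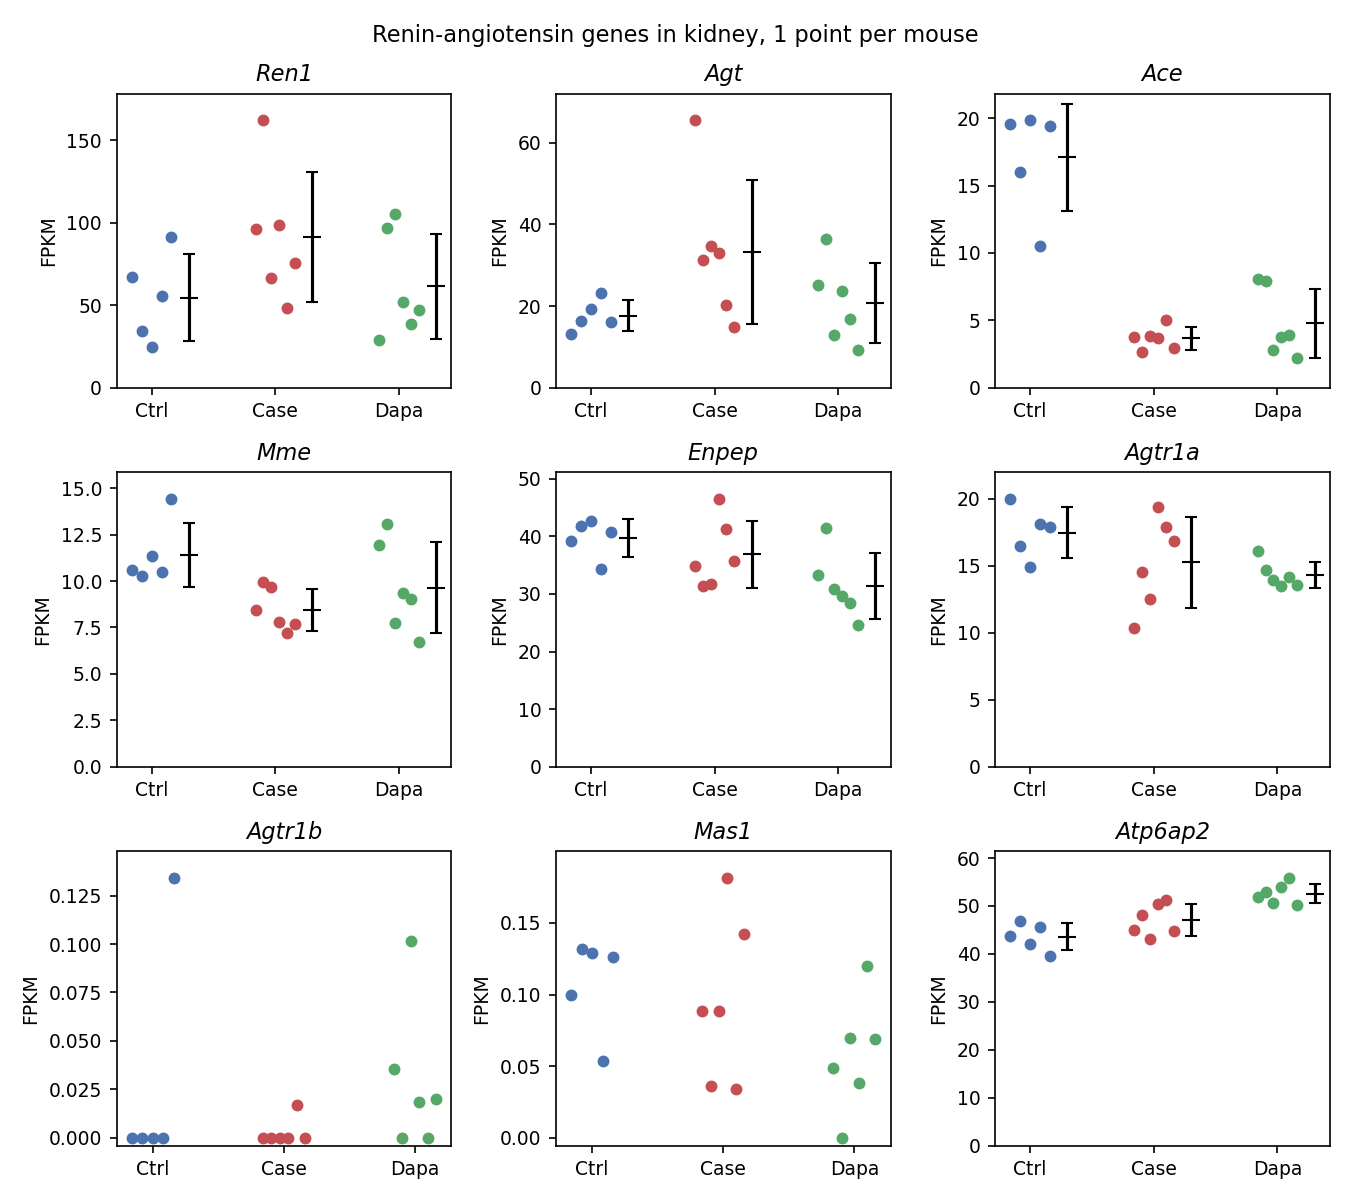
FPKM of the 9 renin-angiotensin members (vertical axes, linear, a separate scale for each gene) in Ctrl, Case and Dapa kidneys. Each point is a mouse, in order of replicate number from left to right, and black bars give the mean ± SD for the 7 members with more than a trace of expression. All Case and Dapa points of Ace lie below all Ctrl points, whereas Ren1 points of the 3 groups overlap.

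On the deposited FPKM scale, which is per length, Ren1 had the highest mean of the 9 in every group. The lengths used for that scale were not given. Those implied by counts and FPKM differed from the GENCODE M21 exon lengths for most members. They were longer for Ace, Enpep, Mme and Mas1 and shorter for Agtr1a. The order and closeness of levels below therefore hold for the deposited scale only. Atp6ap2 and Enpep came next in every group, with means of 43.6 and 39.8 FPKM in Ctrl, 47.1 and 36.9 in Case and 52.6 and 31.4 in Dapa. The mean ± SD of Ren1 and Atp6ap2 overlapped in Ctrl and in Dapa, where the median of Ren1 (49.6) lay below that of Atp6ap2 (52.4), and those of Atp6ap2 and Enpep overlapped in Ctrl, so their order there was not fixed beyond the spread. In Case and Dapa the mean ± SD of Enpep overlapped with that of Agt, the fourth. Agt, Agtr1a and Ace stood side by side in Ctrl at 17.6, 17.5 and 17.1 FPKM. In Case and Dapa Ace was the seventh of the 9, below Mme. Its mean ± SD lay apart from that of Mme in Case but overlapped with it in Dapa. Mas1 and Agtr1b were at the floor of detection in all groups.

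Agt encodes angiotensinogen, the only precursor of the angiotensin peptides, made chiefly in liver and also in the straight part of the proximal tubule. Its FPKM was 13.2, 16.4, 19.3, 23.3 and 16.04 in Ctrl replicates 1 to 5. In Case it ran from 14.9 through a median of 32.1 to 65.5, the highest value being that of Case replicate 1. In Dapa it ran from 9.21 through a median of 20.3 to 36.4. Means were thus highest in Case, 33.3 ± 17.6 (SD, n = 6), against 17.6 ± 3.84 (n = 5) in Ctrl and 20.7 ± 9.83 (n = 6) in Dapa, and the 3 groups overlapped. The log2 fold change of Agt was 0.83 ± 0.30 (SE) in Case against Ctrl with an edgeR q of 0.0817, which did not pass. It reached the threshold with DESeq2 (q = 0.0282), with the term for the 8 libraries (1.23, q = 0.0276) and without Case replicate 6 (0.98, q = 0.0343), and fell to 0.50 (q = 0.133) without Case replicate 1. The only Case library among those 8 was replicate 1, and most Ctrl libraries were among them. That term therefore largely overlapped with the groups.

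The log2 fold change of Agt was -0.70 in Dapa against Case, with a 95% interval of -1.45 to 0.05 and an edgeR q of 0.407, and 0.13 in Dapa against Ctrl (q = 0.764). The summed FPKM of 7 hepatocyte markers was 17.7 to 96.0 in Ctrl, 41.8 to 126 in Case and 19.4 to 75.7 in Dapa, and none of the 7 passed in any comparison. In Case against Ctrl, where 13.0% of all genes passed, Fgb lay just above the threshold (2.40, edgeR q = 0.0509). The median log2 fold change of the 7 there was -0.04. Case replicate 1, with the most Agt, had the highest of these sums, against 41.8 to 54.3 in the other Case mice. In that mouse 4 of the 7 markers were higher than in every other Case mouse: Serpina1a (75.5 FPKM, the others at most 25.9), Ttr (22.1, at most 19.05), Fgb (12.9, at most 2.54) and Apoa1 (3.32, at most 2.27). Alb (9.62) and Apoa2 (2.28) stood within the range of the other Case mice and Cps1 (0.0759) below it. Adipocytes also make Agt. Adipoq, which defines them, had 0 counts in all 6 Case mice, in 4 of 5 Ctrl mice and in 2 of 6 Dapa mice, with at most 3.11 FPKM in Dapa. The summed FPKM of the 7 adipocyte markers was 3.22 to 21.6 in Case and 5.26 to 29.7 in Dapa. The part of other cell types in the Agt values was not tested beyond these levels.

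Ren1 encodes renin, the enzyme that starts the cascade and that granular cells of the afferent arteriole store. Its FPKM was 67.1, 34.4, 24.6, 55.3 and 91.1 in Ctrl replicates 1 to 5. In Case it ran from 48.4 through a median of 86.1 to 162, and in Dapa from 28.7 through a median of 49.6 to 105. The range within each group was wider than the distance between any group means, and the groups overlapped: the highest mouse exceeded the lowest 3.71-fold in Ctrl, 3.35-fold in Case and 3.67-fold in Dapa. The coefficient of variation of Ren1 was 48.5% in Ctrl, 43.2% in Case and 51.9% in Dapa, at percentiles 98.0, 92.9 and 96.8 of all genes with a mean of at least 1 FPKM. These values rest on 745 to 4411 counts per mouse.

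The mean of Ren1 was 54.5 ± 26.4 FPKM in Ctrl, 91.3 ± 39.5 in Case and 61.4 ± 31.9 in Dapa. Its log2 fold change was 0.67 in Case against Ctrl, with a 95% interval of -0.07 to 1.40 and an edgeR q of 0.219. In Dapa against Case it was -0.58, with an interval of -1.32 to 0.16 (q = 0.478), and in Dapa against Ctrl 0.08, with an interval of -0.74 to 0.89 (q = 0.895). Akr1b7, a marker of the renin cell, had 2.50 ± 0.690 FPKM in Ctrl, 4.17 ± 2.05 in Case and 3.00 ± 1.61 in Dapa, and did not pass in Case against Ctrl (q = 0.206).

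Ace encodes angiotensin-converting enzyme, a peptidase of endothelium and of the proximal tubule brush border that makes angiotensin II and breaks down bradykinin. Its FPKM was 19.6, 16.04, 19.9, 10.6 and 19.4 in Ctrl replicates 1 to 5. In Case it was 3.73, 2.65, 3.86, 3.70, 5.04 and 2.92 in replicates 1 to 6. In Dapa it was 8.08, 7.88, 2.78, 3.73, 3.94 and 2.22 in replicates 7 to 12. No Case or Dapa mouse reached the lowest Ctrl mouse, replicate 4, and 2 of the 6 Dapa mice, replicates 7 and 8, lay above the highest Case mouse. Counts of Ace were 1209 to 2259 in Ctrl, 271 to 539 in Case and 196 to 860 in Dapa.

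Ace mRNA was 4.97-fold lower in Case than in Ctrl, a log2 fold change of -2.31 ± 0.19 (SE) with a 95% interval of -2.73 to -1.90 and an edgeR q of 6.59e-05. This was the 5th lowest q and the 45th lowest log2 fold change of the 14582 genes. In Dapa against Ctrl the change was -1.95 ± 0.32, 3.88-fold lower, with a q of 0.00119. In Dapa against Case it was 0.36, with an interval of -0.26 to 0.99 and a q of 0.611. The difference between the db/db groups was therefore not larger than the spread among mice, and the interval also holds a log2 difference of 0.99. Ace was a DEG, defined in the study by q under 0.05 and a fold above 2 between mean FPKM, in both comparisons with Ctrl. Of all genes tested 3.79% were DEGs in Case against Ctrl (1.46% lower) and 7.18% in Dapa against Ctrl (2.12% lower).

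Some proximal tubule markers were lower in the same comparisons. Of 10 such markers 4 were lower in Case (6.91% of all genes were) and 7 in Dapa against Ctrl (14.9%), and none was higher. Among those that did not pass in Case against Ctrl were Slc5a12 (log2 fold change -0.03, edgeR q = 0.940) and Slc34a1 (-0.26, q = 0.405), and Slc5a2 (-0.03) and Slc22a8 (-0.08) did not pass in Dapa against Ctrl. The summed FPKM of the 10 was 3089 to 3723 in Ctrl, 1892 to 3182 in Case and 1956 to 2950 in Dapa. Lrp2, which encodes the endocytic receptor megalin, fell by 0.98 on the log2 scale in Case against Ctrl (edgeR q = 0.00407). Slc7a13, an amino acid transporter gene of the straight segment of the proximal tubule, fell by 3.24 in Case (q = 0.0011) and by 2.46 in Dapa against Ctrl (q = 0.00316). Its mean was 254 FPKM in Ctrl, 28.7 in Case and 50.1 in Dapa, so it differed more than Ace did. No endothelial marker of 7 passed in any comparison. Ace was therefore also expressed as a ratio to other genes of the same library, which needs no scaling between libraries. These ratios were chosen with the values known and are given with no test.

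The ratio of Ace to Enpep, another brush border enzyme, was 0.307 to 0.499 in Ctrl, 0.0796 to 0.122 in Case and 0.0901 to 0.242 in Dapa, with no overlap between Ctrl and either db/db group. The ratio of Ace to Slc34a1, a phosphate transporter of the proximal tubule, averaged 26.2% of the Ctrl mean in Case and 31.6% in Dapa. The ratio of Ace to the endothelial gene Pecam1 averaged 17.9% in Case and 20.5% in Dapa. In all of these, every db/db mouse lay below every Ctrl mouse.

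Relative to the 10 proximal tubule markers taken singly, the mean ratio of Ace was below that of Ctrl for 9 in Case and for 9 in Dapa, and the groups did not overlap with Ctrl for 9 in Case and for 8 in Dapa. The exception in both was Slc7a13, relative to which Ace averaged 260% of the Ctrl mean in Case and 176% in Dapa, with ranges of 107% to 473% and 90.2% to 330% against 81.3% to 122% in Ctrl. The ratio of Ace to Lrp2 averaged 40.9% in Case, with no overlap with Ctrl, and 58.4% in Dapa, where the ranges of 38.4% to 81.3% in Dapa and 73.9% to 120% in Ctrl overlapped. Ace was thus lower relative to most of these genes but not relative to Slc7a13. The part of tubule segments in the Ace values was not tested.

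**Figure D2:**
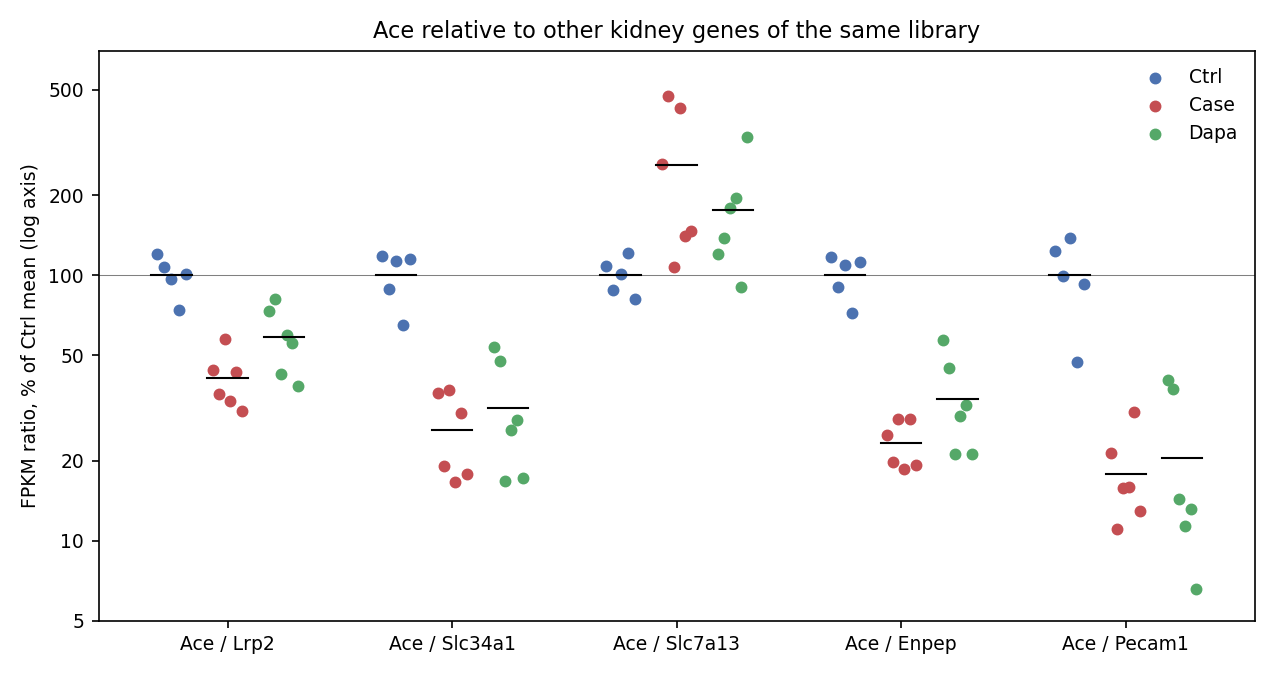
FPKM of Ace divided by that of Lrp2, Slc34a1, Slc7a13, Enpep or Pecam1 in the same library, as a percentage of the Ctrl mean of that ratio (vertical axis, logarithmic). Points are mice, black lines are group means and the grey line marks the Ctrl mean. In Case the means lie between 17.9% and 40.9% for all but Slc7a13, relative to which Ace stands at 260%.

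Mme encodes neprilysin, a brush border and podocyte endopeptidase that forms angiotensin 1-7 and degrades natriuretic peptides. Its FPKM was 10.6, 10.3, 11.4, 10.5 and 14.4 in Ctrl replicates 1 to 5. In Case it ran from 7.18 through a median of 8.11 to 9.94, and in Dapa from 6.74 through a median of 9.20 to 13.1. All Case mice lay below all Ctrl mice, whereas Dapa overlapped with both. The log2 fold change of Mme was -0.51 ± 0.11 (SE) in Case against Ctrl (edgeR q = 0.0101), a 1.43-fold lower level.

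In Dapa against Ctrl the log2 fold change of Mme was -0.35 (q = 0.112, not passed), and it passed with the term for the 8 libraries (-0.48, q = 0.0166) and without Dapa replicate 8 (-0.45, q = 0.0390). In Dapa against Case it was 0.17, with a 95% interval of -0.15 to 0.49. Of all genes tested in Case against Ctrl, 8.43% had groups that did not overlap in FPKM (3.46% lower, 4.97% higher), and of the 8 members these were Ace and Mme. In Dapa against Ctrl the share was 14.5% (4.74% lower, 9.79% higher) and the members were Ace, lower, and Atp6ap2, higher. In Dapa against Case it was 0.48% and no member was among them.

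Enpep encodes aminopeptidase A, which removes the first residue of angiotensin II. Its FPKM was 39.3, 41.8, 42.7, 34.4 and 40.7 in Ctrl replicates 1 to 5. In Case it ran from 31.4 through a median of 35.3 to 46.5, and in Dapa from 24.6 through a median of 30.2 to 41.4. The groups overlapped, with 5 of the 6 Dapa mice below the lowest Ctrl mouse. The log2 fold change of Enpep was -0.45 ± 0.12 (SE) in Dapa against Ctrl (edgeR q = 0.0153), a 1.37-fold lower level. It was -0.19 in Case against Ctrl (q = 0.335) and -0.26 in Dapa against Case, with a 95% interval of -0.55 to 0.04 (q = 0.435).

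Agtr1a encodes the main angiotensin II type 1 receptor of rodent kidney. Its FPKM was 19.95, 16.5, 14.9, 18.1 and 17.9 in Ctrl replicates 1 to 5. In Case it ran from 10.4 through a median of 15.7 to 19.3, and in Dapa from 13.5 through a median of 14.0 to 16.1. The groups overlapped, and Dapa was the narrowest, with a coefficient of variation of 6.76% against 22.4% in Case. The log2 fold change of Agtr1a was -0.39 ± 0.09 (SE) in Dapa against Ctrl (edgeR q = 0.00653). It was -0.27 in Case against Ctrl (q = 0.282) and -0.12 in Dapa against Case, with a 95% interval of -0.42 to 0.19 (q = 0.753).

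Ratios of these members to proximal tubule genes depended on the gene chosen as denominator. The ratio of Agtr1a to Slc34a1 was 0.0126 ± 0.00180 (SD) in Ctrl, 0.0128 ± 0.00130 in Case and 0.0119 ± 0.00115 in Dapa. The ratio of Enpep to Slc34a1 was 0.0286 ± 0.00162, 0.0316 ± 0.00641 and 0.0259 ± 0.00280. Slc34a1 itself had a log2 fold change of -0.31 in Dapa against Ctrl (q = 0.0367). The ratio of Enpep to Lrp2 was 0.217 to 0.292 in Ctrl, 0.367 to 0.492 in Case and 0.315 to 0.493 in Dapa, higher in every db/db mouse. The ratio of Mme to Lrp2 was 0.0577 to 0.0784 in Ctrl, 0.0639 to 0.151 in Case and 0.113 to 0.156 in Dapa, so that Dapa lay above Ctrl in every mouse and Case overlapped with it. Relative to Slc34a1, Mme was at 0.00824 ± 0.00134 (SD) in Ctrl, 0.00761 ± 0.00289 in Case and 0.00796 ± 0.00164 in Dapa, and the groups overlapped. The part of the proximal tubule markers in the lower Agtr1a, Enpep and Mme values was not tested.

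Agtr1b, the other type 1 receptor gene of rodents, and Mas1, the receptor of angiotensin 1-7, were at trace level. Agtr1b had 0 counts in 4 of 5 Ctrl, 5 of 6 Case and 2 of 6 Dapa libraries and at most 8 counts in any, and was tested in no comparison. A count of 0 allows up to 3 counts, 0.169 to 0.230 CPM at these depths, for counting error alone. Mas1 had 5 to 12 counts in Ctrl, 3 to 16 in Case and 0 to 9 in Dapa. It passed the filter on low counts in Case against Ctrl alone, where its log2 fold change was -0.24 with a 95% interval of -1.23 to 0.74, so no difference was detectable at this depth. The antisense gene Airn, which covers an exon of Mas1, had 38 to 164 counts per library.

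Atp6ap2 encodes the (pro)renin receptor, which is also an accessory subunit of the vacuolar proton pump present in every cell. Its FPKM was 43.8, 47.0, 42.1, 45.6 and 39.6 in Ctrl replicates 1 to 5. In Case it ran from 43.1 through a median of 46.6 to 51.3, and in Dapa from 50.3 through a median of 52.4 to 55.8. Every Dapa mouse lay above every Ctrl mouse on this scale, and the coefficient of variation was 6.64% in Ctrl, 7.06% in Case and 3.93% in Dapa. The TMM-scaled log2 fold change of Atp6ap2 in Dapa against Ctrl was 0.16 ± 0.07 (SE) with an edgeR q of 0.0850, which did not pass. It passed with DESeq2 (0.17, q = 0.0353), with upper quartile factors (0.20, q = 0.0376) and with limma on log2(FPKM + 1) (0.27, q = 0.00675). The call thus depended on the tool and settings. In Case against Ctrl it was 0.03 (q = 0.836) and in Dapa against Case 0.14, with a 95% interval of -0.03 to 0.30 (q = 0.446).

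**Figure D3:**
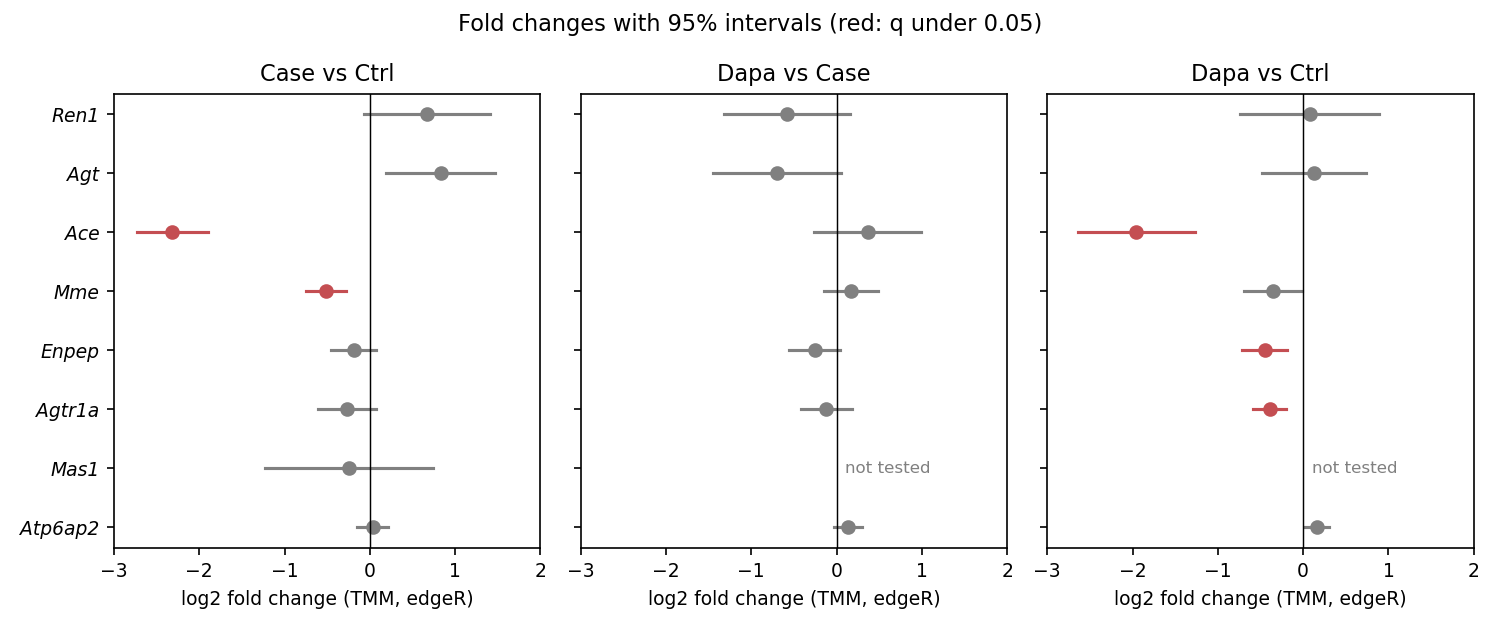
Log2 fold changes (horizontal axis) of the 8 tested members in the 3 comparisons, from edgeR with TMM scaling. Points are estimates, lines are 95% intervals, and red marks a q under 0.05. Ace lies at -2.31 and -1.95 in the comparisons with Ctrl, and every interval in Dapa against Case includes 0.

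The tested members gave a median log2 fold change of -0.22 in Case against Ctrl, -0.12 in Dapa against Case and -0.35 in Dapa against Ctrl, beside medians of 0.03, -0.01 and 0.02 over all genes tested. In Case against Ctrl 2 of 8 passed, both lower, and in Dapa against Ctrl 3 of 7, all lower, beside backgrounds of 6.91% and 14.9% lower. In Dapa against Case 0 of 7 passed, and 0 had an unadjusted p under 0.05 with edgeR. Over all genes that comparison gave 0 calls with edgeR, 1880 genes at an unadjusted p under 0.05, and 202 calls with DESeq2, none of them a member. The comparisons share groups: Ctrl mice stand in both comparisons with Ctrl, so that a low or high Ctrl value enters both.

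Of the 17 other genes of angiotensin handling reported here, 15 were in the table and 11 were tested. In Case against Ctrl, where 6.91% of all genes were lower, 2 of these 11 were lower and none of them higher. Prcp, a carboxypeptidase that makes angiotensin 1-7, had 27.7 ± 1.48 FPKM in Ctrl, 19.1 ± 1.79 in Case and 19.99 ± 4.63 in Dapa. It fell by 0.62 (edgeR q = 0.00151) in Case and by 0.58 (q = 0.00866) in Dapa against Ctrl on the log2 scale. Ece1, the endothelin-converting enzyme, fell by 0.58 (q = 0.00722) and by 0.36 (q = 0.0132).

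In Dapa against Ctrl, where 14.9% of all genes were lower, 5 of these 11 were lower and none of them higher. Besides Prcp and Ece1 these were Anpep (aminopeptidase N, log2 fold change -0.57, edgeR q = 0.00505), Agtrap (a protein that binds the type 1 receptor, -0.33, q = 0.00477) and Nln (neurolysin, a peptidase, -0.31, q = 0.0153). In Case against Ctrl these 3 genes stood at -0.47, -0.16 and -0.17 and did not pass. Agtr2, the type 2 receptor gene, had 0 counts in all Ctrl libraries and at most 2 in any other. The median of the 11 was -0.11 in Case and -0.29 in Dapa against Ctrl. Chymases of mast cells can also form angiotensin II, and the chymase genes Cma1 and Mcpt4 had 0 counts in 15 and 16 of 17 libraries and at most 2 in any. Of the 6 mast cell markers Kit, which other cells express too, made up most of the sum, at 1.14 to 2.75 FPKM.

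Ace also degrades bradykinin, the product of the kallikrein-kinin system. Of 6 tested genes of that system 3 were higher in Case than in Ctrl (6.09% of all genes tested were) and none lower, and of 5 tested in Dapa against Ctrl 1 was higher (14.2%). Kng2, a kininogen gene, had 50.6 ± 11.3 FPKM in Ctrl, 93.3 ± 32.4 in Case and 82.7 ± 10.3 in Dapa. Its log2 fold change was 0.81 (edgeR q = 0.0289) in Case and 0.61 (q = 0.00419) in Dapa against Ctrl. Kng2 and Kng1 are close copies, so counting may have split reads between them. Cpn1, a carboxypeptidase that inactivates kinins, rose by 0.40 on the log2 scale in Case (q = 0.0159) and did not pass in Dapa (0.25, q = 0.128). Bdkrb2, the bradykinin B2 receptor gene, had 0 to 8 counts in Ctrl, 7 to 23 in Case and 7 to 36 in Dapa. Its log2 fold change was 1.86 in Case against Ctrl (q = 0.0344) and 0.39 in Dapa against Case (q = 0.746, not passed), and it was not tested in Dapa against Ctrl. Bdkrb2 is 1 of the 3 called higher in Case, but it passed the filter on low counts there only through the Case libraries.

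Genes known to govern renin release passed in both directions, as genes at large did. Of 19 tested in Case against Ctrl 2 were higher (6.09% of all genes tested were), Ptges (prostaglandin E synthase, log2 fold change 0.63, edgeR q = 0.00234) and Rgs5 (a G protein regulator of pericytes, 0.81, q = 0.0107), and 2 lower (6.91% of all genes), Vdr (the vitamin D receptor, -0.61, q = 0.0429) and Slc12a2 (a sodium-potassium-chloride cotransporter, -0.40, q = 0.0108). Of 20 tested in Dapa against Ctrl 5 were higher (14.2% of all genes) and 2 lower (14.9%). Rgs5 was at 0.91 (q = 0.000584), Gja4, a connexin of arterioles, at 1.00 (q = 0.0117) and Adora1, the adenosine A1 receptor of the afferent arteriole, at 2.07 (q = 0.00354). The mean of Adora1 was 0.270 ± 0.130 FPKM in Ctrl, 0.586 ± 0.208 in Case and 1.23 ± 0.643 in Dapa. Gja5, the other connexin gene of the list, passed in no comparison, with 0.704 ± 0.128 FPKM in Ctrl, 1.08 ± 0.422 in Case and 0.547 ± 0.115 in Dapa.

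Ptgs2 (cyclooxygenase 2) had 0 to 7 counts in Ctrl, 4 to 70 in Case and 8 to 142 in Dapa. It was called higher in Dapa against Ctrl (q = 0.00794), where it passed the filter on low counts only through the Dapa libraries. In Case against Ctrl it was not tested, and in Dapa against Case it was at 0.89 (edgeR q = 0.628, not passed). Adcy5, an adenylate cyclase, rose by 0.70 in Dapa against Ctrl (q = 0.0477). The lower genes in Dapa against Ctrl were Vdr (-0.40, q = 0.0223) and Nr1h3, a liver X receptor gene (-0.78, q = 0.00458). Markers of mural and mesangial cells, which neighbour the renin cell, were in part higher in the same comparison: 3 of 8 passed, all higher (14.2% of all genes), with summed FPKM of 25.3 to 57.6 in Ctrl, 33.4 to 58.1 in Case and 38.0 to 110 in Dapa. Their part in the Rgs5 and Gja4 values was not tested.

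Aldosterone, the steroid that angiotensin II releases from the adrenal cortex, acts on the distal nephron. Of 8 genes of its action and response 2 were higher in Case (6.09% of all genes tested were) and 6 in Dapa against Ctrl (14.2%), and none lower. Sgk1 and Nedd4l passed in no comparison, and in Case against Ctrl they stood at -0.16 (edgeR q = 0.721) and -0.11 (q = 0.659). The mean of Sgk1 was 12.2 ± 4.33 FPKM in Ctrl, 11.5 ± 3.80 in Case and 18.1 ± 5.61 in Dapa. The epithelial sodium channel gene Scnn1a had 6.30 ± 2.29 FPKM in Ctrl, 12.1 ± 2.95 in Case and 16.5 ± 3.78 in Dapa. Its log2 fold change was 0.86 (edgeR q = 0.0238) in Case and 1.29 (q = 0.00151) in Dapa against Ctrl. Scnn1b rose by 0.39 (q = 0.0230) and by 0.68 (q = 0.000688). Scnn1g (0.55, q = 0.00324), the mineralocorticoid receptor gene Nr3c2 (0.60, q = 0.0465), Hsd11b2, whose enzyme shields that receptor from cortisol-like steroids (0.23, q = 0.0402), and the sodium chloride cotransporter gene Slc12a3 (0.40, q = 0.0104) passed in Dapa against Ctrl and not in the other comparisons.

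Markers of the distal nephron and collecting duct moved with these genes. Of 9 such markers, among them Slc12a3 and Scnn1g, 4 were higher in Case (6.09% of all genes) and 6 in Dapa against Ctrl (14.2%), and their summed FPKM was 687 to 1800 in Ctrl, 1229 to 3081 in Case and 1625 to 2458 in Dapa. One of those that passed in both comparisons, Slc4a1 (log2 fold change 0.79 and 0.77), is also a gene of red cells. Of 6 erythrocyte markers 5 were higher in both comparisons, with summed FPKM of 22.1 to 73.7 in Ctrl, 61.2 to 440 in Case, the highest in replicate 3, and 114 to 362 in Dapa. The part of these markers in the aldosterone genes was not tested. No gene of these 4 pathway lists passed in Dapa against Case with edgeR.

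**Figure D4:**
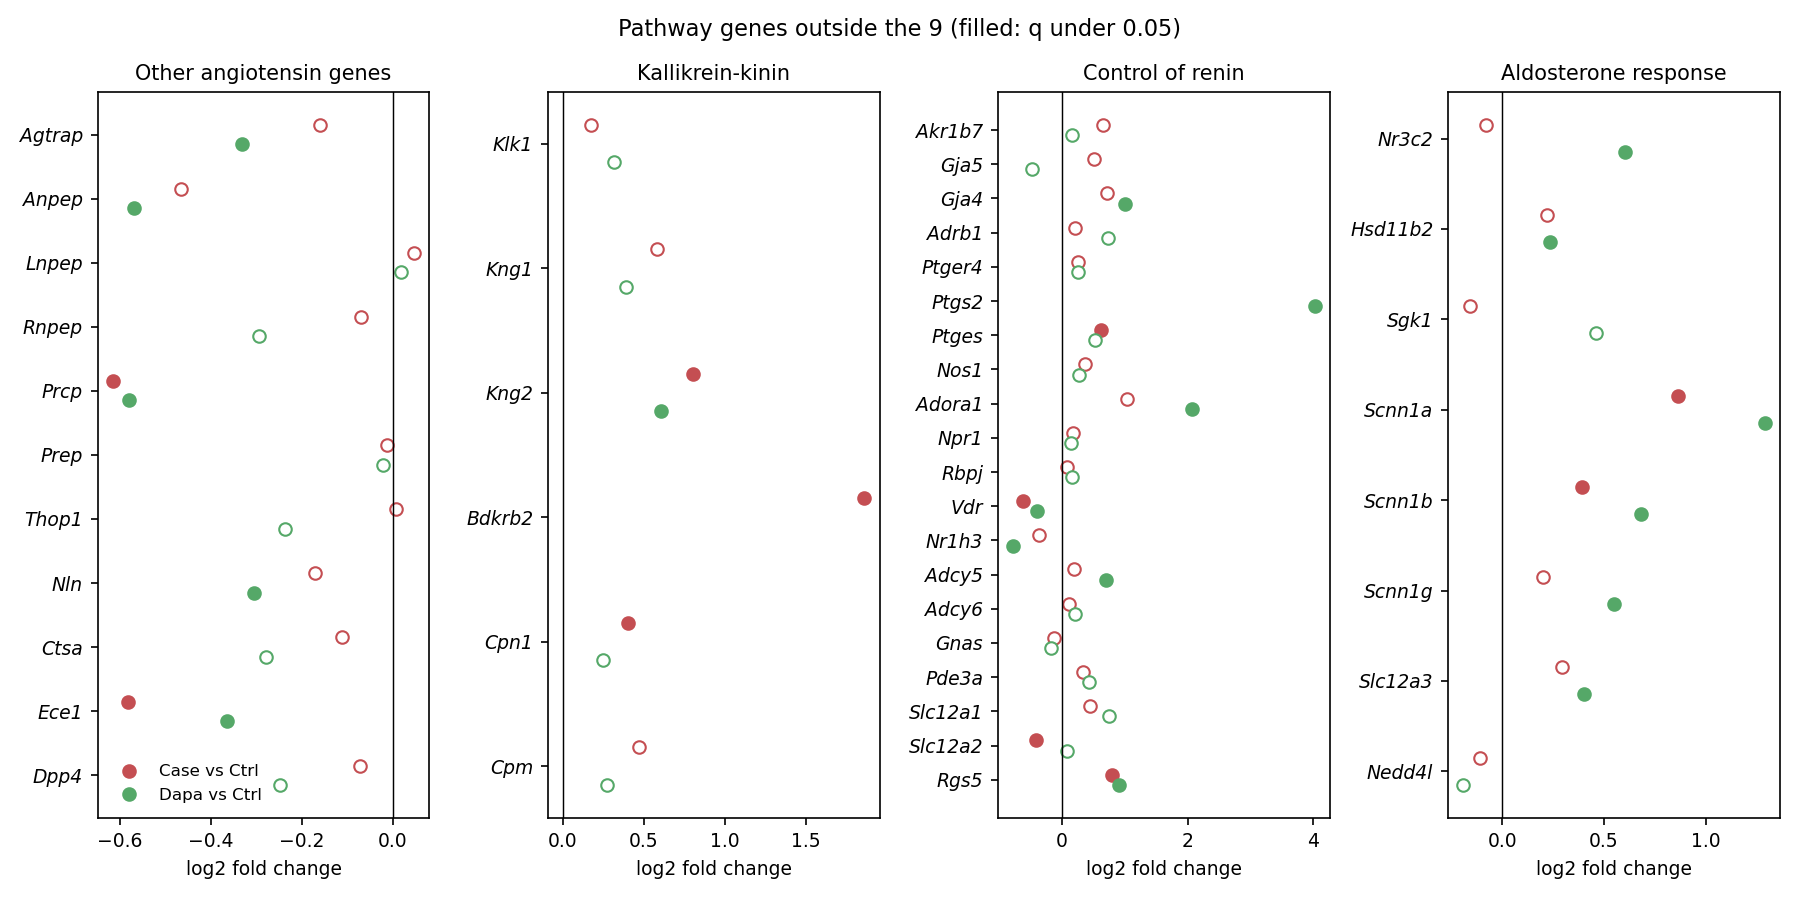
Log2 fold changes (horizontal axes, a separate scale for each panel) of pathway genes outside the 9 members, in Case against Ctrl (red) and Dapa against Ctrl (green), with filled points for a q under 0.05. Prcp and Ece1 lie below 0 in both comparisons, and Scnn1a and Scnn1b lie above 0 in both.

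Within groups, the members were compared by the correlation of each mouse's deviation from its group mean in log2(FPKM + 1), over 17 mice. Ace deviated most like Enpep (Pearson's r = 0.72) and Mme (0.67), and Agt like Mme (0.63), whereas Ren1 had r between -0.23 and 0.23 with every other expressed member. Over 11454 genes the nearest to Ace were M6pr (0.94), which encodes a mannose-6-phosphate receptor, Mep1a (0.92), a brush border meprin, and Galns (0.92), a lysosomal sulfatase. The nearest to Enpep were Aco1 (0.94), Por (0.93) and Abcc2 (0.92), to Mme Mep1b (0.83), Slc22a13 (0.83) and A4gnt (0.80), and to Agt Napsa, Car5a and Uroc1 (each 0.91). The nearest to Agtr1a were Itih5 (0.89) and Adamts5 (0.86), to Ren1 Vamp4 (0.84), Gm28229 (0.81) and Hmgb1-ps2 (0.77), and to Atp6ap2 Pot1a and Ndufa9 (both 0.81) and Fgfrl1 (0.77). These values are descriptions, since genes of a library share its depth, dissection and cell makeup.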

How the data were processed

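Whole-kidney RNA of 17 mice, 1 strand-specific library each, was analysed in the groups of the labels. The authors aligned reads to mm10 with HISAT2, counted them with Stringtie and deposited a count and an FPKM value per gene and mouse. For each gene, counts, FPKM and the sum of counts per library implied a length that was the same in all libraries within 0.00482%. No TMM factor entered the deposited FPKM. Of 22561 genes, 3 with entries broken across 2 lines were not used. In those 3 entries FPKM and counts differed by more than 0.1% in 8 libraries, for which a term was tried as an alternative. The factors ran from 0.970 in Ctrl replicate 4 to 1.38 in Case replicate 1.

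Counts were compared with edgeR 4.0.16 in R 4.3.3 (quasi-likelihood test after TMM scaling and the filter filterByExpr, with Benjamini-Hochberg q over all genes tested), each comparison on its own groups. The labels give no litters or cultures, but each sample is named as a mouse. FPKM gave levels, ratios and correlations (Python 3.11.15). Alternatives were DESeq2 1.42.0, limma 3.58.1 on log2(FPKM + 1) and log2(FPKM + 0.1), upper quartile and median ratio factors, no filter, all 3 groups in one fit, the replicate block and each mouse left out. In data simulated with 4-fold changes the edgeR test recovered 97% of 198 tested genes for Case and Ctrl (5 false calls), 98% of 200 for Dapa and Case (9 false calls) and 96.5% of 198 for Dapa and Ctrl (12 false calls). Smaller changes, such as those of all members in Dapa against Case, were not simulated, so these shares do not apply to them.

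Members and lists were chosen with earlier results of these data known. Named genes were all 9 members, genes of the 4 pathway lists with q under 0.05 in any comparison, Agtr2, Agtrap and the 3 genes most like each expressed member. Of the genes this rule names, 2 are not reported here, and the counts of the list of other angiotensin genes leave 1 of them out. Akr1b7, Gja5, Sgk1, Nedd4l, marker genes and denominators of ratios were added with their values known. Protein sequences, Ctsg, Mrgprd and the ATAC-seq data were not analysed here.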

Additional observations from a re-analysis of the deposited data

Results flagged for a closer look

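Mme in Ctrl replicate 5, at 14.4 FPKM, lay farther from its nearest neighbour in the group than Dixon's criterion allows (gap over range 0.736, critical value 0.71). It was the only such value among 23 member and group combinations tested, and chance gives about 1 in 20. Without this mouse the log2 fold change of Mme was -0.44 in Case against Ctrl (edgeR q = 0.0236) and -0.26 in Dapa against Ctrl (q = 0.257).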

How the results depend on the processing

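The lower Ace mRNA kept its direction and its call in all 20 alternatives of Case against Ctrl (log2 fold change -2.46 to -1.95, largest q 0.00293) and all 19 of Dapa against Ctrl (-2.24 to -1.73, largest q 0.00416). Agtr1a and Enpep kept theirs in all 19 alternatives of Dapa against Ctrl, with largest q of 0.0381 and 0.0459. The count of genes called in Case against Ctrl was 707 with the replicate block, 751 with the term for the 8 libraries, and 1002 (without Ctrl replicate 3) to 2154 (without Case replicate 5) with 1 mouse left out. Without Ctrl replicates 1, 2 and 5 it was 1160, 1150 and 1125. In Dapa against Case it was 5 with all 3 groups in one fit, 202 with DESeq2 and 0 to 7 with 1 mouse left out, the 7 arising without Dapa replicate 7. Of the members 1 passed in Case against Ctrl with the replicate block, since Mme (-0.51) had a q of 0.0734 there. Members that were DEGs numbered 1 to 2 with 1 mouse left out, the second being Agt without Case replicate 6.

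The replicate numbers did not pair the mice: the correlation of same-numbered Ctrl and Case deviations was -0.10 to -0.03, and no Ctrl mouse correlated best with its own number. Dapa numbers are not shared with the other groups, so the block was fitted in Case against Ctrl alone. Directions turned for 4 changes that had not passed. With 1 mouse left out, Atp6ap2 in Case against Ctrl ranged from -0.022 (without Ctrl replicate 5) to 0.062, with -0.0064 without Case replicate 5. With the term for the 8 libraries, Agtr1a in Dapa against Case was 0.0007, and in Dapa against Ctrl Ren1 was -0.17 and Agt -0.0085. With 1 mouse left out, Ren1 in Dapa against Ctrl ranged from -0.15 to 0.33 (below 0 without Ctrl replicates 2 and 3 and Dapa replicates 8 and 9) and Agt from -0.10 (without Dapa replicate 8) to 0.29. The cause was not tested. Limma on log2(FPKM + 0.1) moved the median of all genes in Dapa against Ctrl from 0.02 to 0.11. Atp6ap2 also passed there (0.27, q = 0.00666). Depth limited Agtr1b, Mas1, Agtr2, Bdkrb2 and Ptgs2, each with libraries of under 10 counts.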
